A study of Mus musculus with 4 samples.

Results

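The 10 genes followed here separate CD4+ helper T cells from CD8+ T cells and other cytotoxic lymphocytes, and were read in whole-genome bisulfite sequencing of mouse spleen CD4+ T cells. They were chosen by name. Cd4 and Zbtb7b were counted as expressed in CD4+ T cells, and Cd8a, Cd8b1, Eomes, Gzmb, Prf1, Klrd1, Nkg7 and Ncr1 as silenced. These labels came from textbook knowledge, and expression in these cells was not measured here. A locus was the gene's RefSeq bounds with 5 kb on each side. These loci held 2621 of the 25373696 cytosine positions listed for the nuclear genome. Of these, 363 positions had at least 5 reads in all 4 libraries, of 4795059 such positions in the genome, and all 10 loci could be measured.

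The 4 libraries came from 10-week-old mice of the NOD strain, a model of spontaneous autoimmune diabetes. From the age of 6 weeks the mice had received either PBS or the proteins OX40L, a costimulatory ligand, and Jagged-1, a Notch ligand, weekly for 3 weeks. One week after the last dose, CD4+CD25- effector T cells (Teff) and CD4+CD25hi regulatory T cells (Treg) were sorted from spleen. Each sort from each treatment gave 1 library, named PBS Teff, PBS Treg, treated Teff and treated Treg below, where treated means OX40L-JAG1; how many mice a library pooled was not given in the sources used here. Every comparison below is therefore between 2 libraries, with no replicate, and its intervals and p-values cover counting error only. They take reads summed over neighbouring positions as independent. Such reads can come from the same molecules, so intervals can be too narrow and p-values too small.

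DNA methylation in mammals sits mainly on cytosines followed by guanine (CpG). A start region that stays free of methylation can be open to transcription factors but need not be in use. Methylation of start regions and enhancers accompanies stable silencing. In the thymus, a T cell precursor that passes through a stage with both co-receptors keeps either CD4 or CD8. Zbtb7b encodes ThPOK, the factor that fixes the CD4 choice by repressing CD8 and cytotoxic genes, and Runx3 does the opposite in CD8 cells. Granzyme B and perforin are the killing proteins of cytotoxic granules.

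The 7 genes that matched an entry in the RefSeq promoter table (GRCm38.p6) differed in how many CpGs the 250 bases before the start site hold. Zbtb7b had 5 CpGs before one start and 7 before the other, Eomes 8, Prf1 4, Nkg7 2, Gzmb 1, and Cd8a and Ncr1 0. Over all 32851 promoters of the table the median was 6, and 92.1% held at least 1. The sequences below are shown because the levels reported next sit on their CpGs, which are in capitals; they read 5′ to 3′ along the gene and end at the base before the start site.
Zbtb7b, upstream start, chr3:89393379-89393628, minus strand: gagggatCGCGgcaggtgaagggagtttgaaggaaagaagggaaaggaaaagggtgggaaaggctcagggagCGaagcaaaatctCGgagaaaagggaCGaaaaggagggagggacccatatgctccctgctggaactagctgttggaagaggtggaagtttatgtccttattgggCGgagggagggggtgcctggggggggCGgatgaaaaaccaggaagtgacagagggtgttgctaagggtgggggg
Eomes, chr9:118477939-118478188, plus strand: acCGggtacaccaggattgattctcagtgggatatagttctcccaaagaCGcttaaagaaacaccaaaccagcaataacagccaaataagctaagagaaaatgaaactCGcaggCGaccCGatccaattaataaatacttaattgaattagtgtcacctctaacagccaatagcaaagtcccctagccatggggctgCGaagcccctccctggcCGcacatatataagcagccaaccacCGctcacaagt
Prf1, chr10:61297586-61297835, plus strand: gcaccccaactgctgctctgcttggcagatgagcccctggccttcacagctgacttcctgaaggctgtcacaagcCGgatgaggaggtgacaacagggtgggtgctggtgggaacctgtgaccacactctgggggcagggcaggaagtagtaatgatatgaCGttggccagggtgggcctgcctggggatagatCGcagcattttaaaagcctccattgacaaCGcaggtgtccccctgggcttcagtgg
Gzmb, chr14:56262335-56262584, minus strand: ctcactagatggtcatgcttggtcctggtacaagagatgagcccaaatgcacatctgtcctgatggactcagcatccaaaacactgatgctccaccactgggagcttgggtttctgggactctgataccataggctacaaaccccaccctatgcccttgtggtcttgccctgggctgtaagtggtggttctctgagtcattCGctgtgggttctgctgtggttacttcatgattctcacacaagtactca
Cd8a, chr6:71373177-71373426, plus strand: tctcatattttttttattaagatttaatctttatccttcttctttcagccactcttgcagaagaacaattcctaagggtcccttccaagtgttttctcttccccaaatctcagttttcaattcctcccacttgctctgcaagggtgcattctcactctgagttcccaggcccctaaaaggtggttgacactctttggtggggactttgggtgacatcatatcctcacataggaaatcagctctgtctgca

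The promoter CpGs of the expressed Zbtb7b and of the silenced Eomes were both nearly free of methylation where they were read. At the upstream Zbtb7b start, 5 of the 7 CpGs were read, and 0 of 60 reads were methylated in PBS Teff, 2.0% of 50 in PBS Treg, 3.12% of 32 in treated Teff and 0 of 38 in treated Treg. These reads lie on neighbouring CpGs, each read on 1 strand, and can come from the same molecules, so they are not 60 independent counts and no upper limit is given. In the Eomes promoter all 8 CpGs were read in PBS Teff, and 1.69% of 59 reads were methylated. The other libraries gave 0 of 15, 0 of 17 and 0 of 26 reads there, at 3 to 4 of the CpGs.

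The Prf1 promoter was read at all 4 CpGs only in PBS Teff, where it was also low. The CpG at -175 from the start site had 1 methylated read of 16, that at -89 had 0 of 13, that at -56 had 1 of 13, and that at -27 had 0 of 13. Together, 3.64% of 55 reads were methylated, although Prf1 is counted as silenced. Only the CpG at -27 reached 5 reads in another library, with 1 methylated read of 6 in PBS Treg. In Gzmb the single CpG, at -49, had 1 methylated read of 5 in both PBS Teff and treated Teff, which is too few to give a level. The 2 promoter CpGs of Nkg7, whose sequence is not shown, reached 5 reads only in PBS Teff, with 1 methylated read of 14 together.

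Wider windows of 1 kb on each side of the start site placed the genes among all start sites of the table. The positions differ between libraries here, because each library was taken by itself, so the values describe libraries and are not compared. The upstream Zbtb7b start was at 1.08% in PBS Teff, 1.83% in PBS Treg, 0.855% in treated Teff and 2.70% in treated Treg. Eomes, a T-box factor of effector and memory CD8 T cells and of natural killer (NK) cells, was at 3.40%, 2.35%, 2.01% and 2.60% in the same order. These 2 starts lay in the lowest 10% of start sites in every library, between the 3.06th and 9.21st percentile. The other Zbtb7b start, inside the gene, was at 4.40% of 91 reads in PBS Teff, 7.14% of 42 in PBS Treg, 18.5% of 81 in treated Teff and 5.41% of 37 in treated Treg. It lay higher among start sites, at the 9.19th, 14.7th, 26.7th and 13.4th percentile. Among all start sites, 26.6% to 28.4% lay under 20% methylation, and 47.4% to 49.1% of those with at least 6 CpGs did.

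The start regions of Gzmb, Cd8a and Nkg7, which hold few CpGs, were intermediate, and that of Ncr1 was high. The Gzmb start region had 57.7% of 52 reads methylated in PBS Teff, and 72.2% of 36 in treated Teff. Cd8a, the alpha chain of the CD8 co-receptor, was at 58.8% of 177 reads at 27 positions in PBS Teff. That was the only library with at least 5 positions there. Nkg7, a granule membrane protein, was at 32.8% and 44.4% in the PBS libraries and 33.9% in treated Teff. Ncr1, the NK receptor NKp46, was at 81.1% in PBS Teff and 79.5% in treated Treg. Start sites with 0 to 2 CpGs had medians of 81.2% to 85.5% in the 4 libraries, so Gzmb, Cd8a and Nkg7 lay below that median where they were read. In sorted bulk cells, a mixture of methylated and unmethylated cells and partial methylation in every cell cannot be told apart.

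Across whole loci, flanks included, the expressed and silenced genes did not form separate groups. The level of a locus was the percentage of methylated reads over positions that every library read at least 5 times. For the 2 expressed loci the median came to 51.2% (PBS Teff), 54.2% (PBS Treg), 56.0% in treated Teff and 59.1% in treated Treg. The median of the 8 silenced loci was 85.9%, 88.6%, 83.8% and 85.2%, or 34.7, 34.4, 27.8 and 26.1 percentage points higher. The median of all 46435 loci measured was 86.3%, 85.9%, 82.4% and 83.0%, so the silenced median lay near that of any locus. Within the gene bounds alone, with 7 loci measured, the differences were 53.5, 50.2, 50.7 and 51.0 points. Cd8a, Gzmb and Nkg7 had too few shared positions there. Zbtb7b had 8, at 1.69% to 6.76%, and its bounds hold the upstream promoter CpGs read above, so this is not a contrast of gene bodies alone. Over positions with at least 10 reads they were 63.7, 66.6, 56.2 and 62.6 points, with 8 loci measured and Cd4 as the single expressed one.

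**Figure D1:**
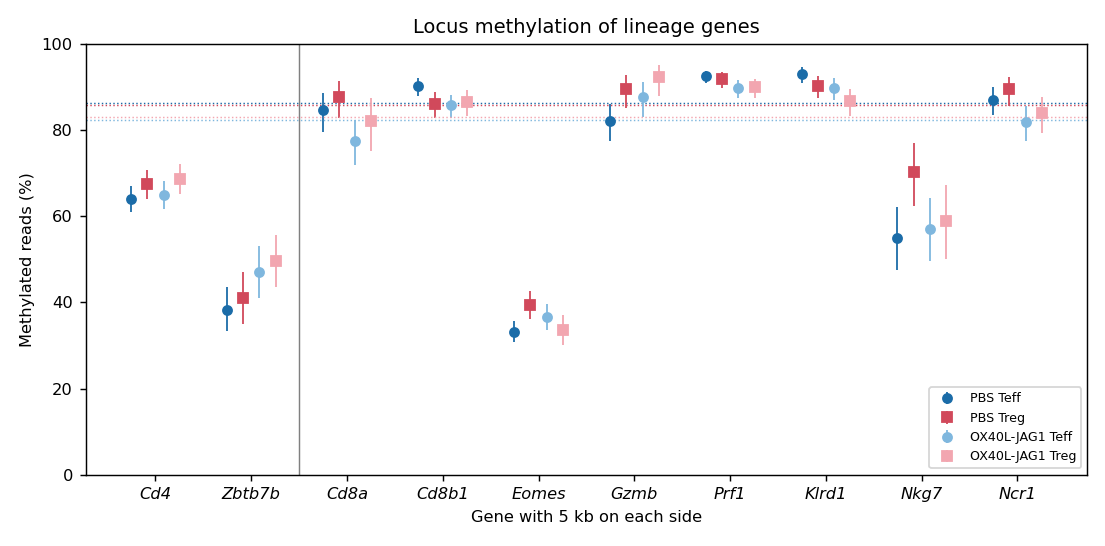
Percentage of methylated reads over each gene with 5 kb on each side (y axis) for the 10 genes (x axis), 1 marker per library with its 95% Wilson interval; dotted lines are the medians of all loci, and the vertical line separates Cd4 and Zbtb7b from the silenced genes. Eomes sits at 33.2% to 39.4%, at or below Zbtb7b, while Prf1 sits at 89.7% to 92.5%. Most shared Eomes positions, 44 of 73, lie in its high-coordinate flank.

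The Cd4 locus stood at 64.0% in PBS Teff, 67.5% in PBS Treg, 65.0% in treated Teff and 68.7% in treated Treg. Zbtb7b was at 38.3%, 40.9%, 47.0% and 49.6% in the same order. Eomes, though counted as silenced, was at 33.2%, 39.4%, 36.6% and 33.5%, and Nkg7 at 54.9%, 70.2%, 57.1% and 59.0%. These 4 loci lay low among all loci, Eomes between the 1.68th and 2.34th percentile and Zbtb7b between the 2.23rd and 4.23rd. The other 6 silenced loci lay between 77.5% (Cd8a in treated Teff) and 93.1% (Klrd1 in PBS Teff). At the shared positions, the low Eomes level came mostly from outside the gene. Of its 73 shared positions, 44 lay in the high-coordinate flank, at 7.68% to 11.4% over the 4 libraries. The 23 inside the gene were at 81.8% in PBS Teff, 83.2% in PBS Treg, 70.9% in treated Teff and 73.6% in treated Treg. PBS Teff by itself read 53 positions within 1 kb of the gene's start, at 3.40%.

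Single positions showed the same split. In PBS Teff 19.0% of the 363 positions were at or below 20% methylation, against 4.53% of all positions, and the other libraries gave 20.4%, 19.3% and 20.9% against 4.58%, 4.96% and 5.12%. Eomes supplied 41 of the 69 such positions in PBS Teff, Zbtb7b 14, Nkg7 7, Cd4 6 and Klrd1 1. Cd8a, Cd8b1, Gzmb, Prf1 and Ncr1 had 0 there. Of the 25 windows of 1 kb with at least 5 positions, 5 (20%) were under 20% in all 4 libraries, against 1.15% of the 314517 windows of the genome. Of them, 3 adjoin Eomes, 1 covers the Zbtb7b start and 1 lies at the edge of the Nkg7 flank, overlapping the neighbouring gene Cldnd2.

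Cd4 (gene ID 12504, chr6:124864693-124888247) encodes the co-receptor that binds MHC class II. The gene is read from its high-coordinate end, and low methylation stretched inward from there. The window chr6:124887001-124888000 was at 15.2% of 198 reads in PBS Teff, 5.83% of 103 in PBS Treg, 5% of 120 in treated Teff and 2.83% of 106 in treated Treg. The next windows inward stayed low to chr6:124885001, where PBS Teff had 2.86% of 105 reads. All 4 libraries were thus low over the end where transcription begins.

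Further inward Cd4 was intermediate and then high. The window chr6:124882001-124883000, read at 10 shared positions, was at 35.8% in PBS Teff, 33.8% in PBS Treg, 42.0% in treated Teff and 48.2% in treated Treg. Toward the other end, chr6:124877001-124878000 was at 91.5%, 94.9%, 92.2% and 96.8%, and chr6:124866001-124867000 at 93.7%, 95%, 96.6% and 97.7%. The body of the gene was therefore methylated over most of its length in all 4 libraries. At the low-coordinate boundary, the window chr6:124864001-124865000 was low, with 4.55% of 22 reads in PBS Teff and 7.69% of 78 in treated Treg. Within 1 kb on each side of that boundary, PBS Teff was at 53.8% of 52 reads and PBS Treg at 36.7% of 30. Treated Teff was at 18.8% of 32 reads there and treated Treg at 16.9% of 89, each library at its own positions. The gene Gpr162 lies within the flank on that side.

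**Figure D2:**
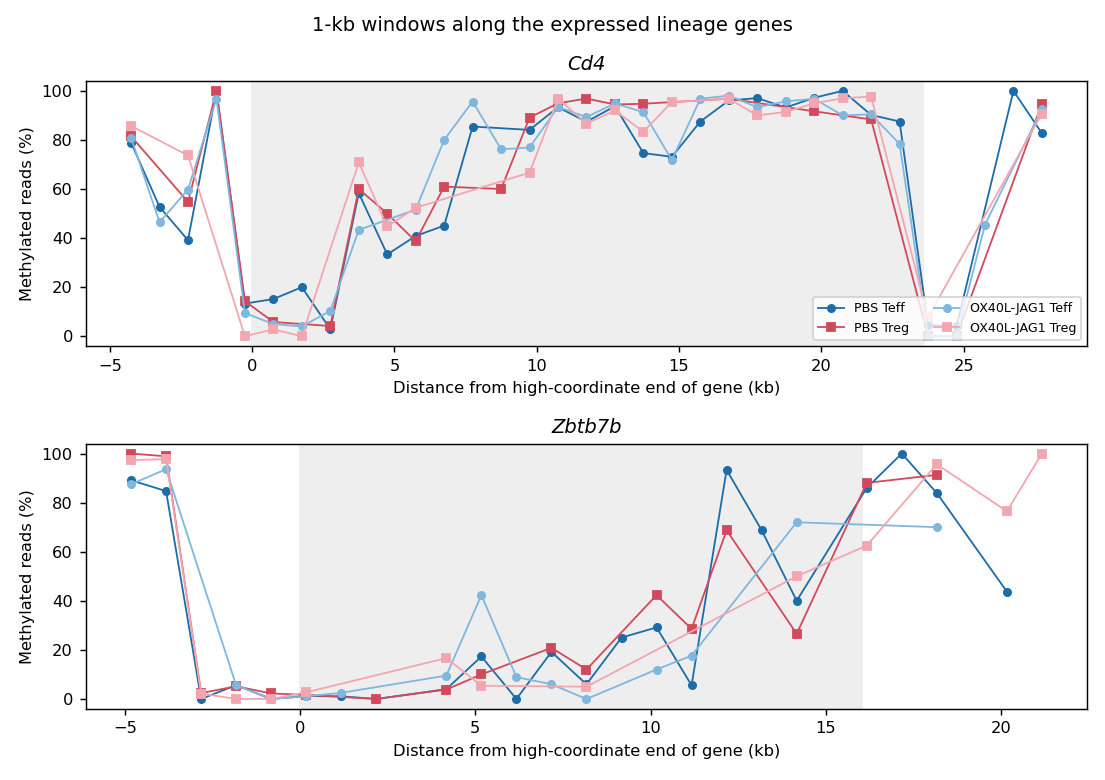
Percentage of methylated reads (y axis) in 1-kb windows along Cd4 and Zbtb7b, by distance in kb from the gene's high-coordinate end (x axis), 1 line per library, each library at its own positions with at least 5 reads and windows with at least 3 positions; the gene is shaded. Cd4 is low over the first kilobases and high over most of the body, while Zbtb7b is low on both sides of its upstream start.

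Zbtb7b (22724, chr3:89377644-89393673) had a wide low stretch around its start. Its start window, chr3:89393001-89394000, was at 1.40% of 143 reads in PBS Teff, 1.82% of 110 in PBS Treg, 1.15% of 87 in treated Teff and 3.09% of 97 in treated Treg. Upstream, chr3:89394001-89395000 had 0 of 49, 2.26% of 133, 0 of 101 and 0 of 21 reads methylated. Low levels therefore lay on both sides of the start in every library. Farther upstream the level was high, at 84.7%, 98.9%, 93.6% and 97.7% in chr3:89397001-89398000.

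Within Zbtb7b, a pair of windows differed in level between libraries without passing the test. At 5 shared positions in chr3:89383001-89384000, PBS Teff had 3.23% of 31 reads methylated and PBS Treg 42.3% of 26, 39.1 points apart (95% interval 17.9 to 58.0, adjusted p = 0.123 by Fisher's exact test). At 5 shared positions in chr3:89388001-89389000, PBS Teff had 6.90% of 29 reads methylated and treated Teff 42.3% of 26, 35.4 points apart (12.9 to 54.8, adjusted p = 0.123 by Fisher's exact test). Both used positions with at least 5 reads in the 2 libraries compared.

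The CD8 co-receptor genes were mostly methylated, with dips inside and upstream. Cd8a (12525, chr6:71373427-71379171) was at 84.7% in PBS Teff, 87.8% in PBS Treg, 77.5% in treated Teff and 82.2% in treated Treg. Upstream of it, chr6:71371001-71372000 was at 50.8%, 67.1%, 47.7% and 51.3%, each library at its own positions. In PBS Teff the window over the start held 24 positions at 55.1% of 158 reads. No Cd8a position shared by the 4 libraries was at or below 20%.

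Cd8b1 (12526, chr6:71322788-71337492), the beta chain, was at 90.2% in PBS Teff, 86.1% in PBS Treg, 85.8% in treated Teff and 86.5% in treated Treg. Most of its shared reads lay in the low-coordinate flank, where 17 positions were at 92.2%, 88.0%, 87.5% and 88.9%. The 5 shared positions in the gene were lower, at 73.7%, 67.4%, 73.8% and 65.5%. In PBS Teff the level was only 25.3% of 75 reads in chr6:71330001-71331000, a window with only 3 positions in treated Teff, where it was 60% of 15 reads.

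Eomes (13813, chr9:118478186-118486132) held a sharp contrast within its locus. Its first kilobase, chr9:118478001-118479000, was at 1.84% of 163 reads in PBS Teff, 1.35% of 74 in PBS Treg, 1.97% of 152 in treated Teff and 0 of 48 in treated Treg. Inside the gene, chr9:118483001-118484000 was at 95%, 97.5%, 95.9% and 93.3%. Beyond the far end, chr9:118488001-118489000 was at 1.65%, 2.94%, 1.67% and 1.69%, where the gene model Gm33460 overlaps. Each library thus showed a methylated gene body between 2 unmethylated stretches.

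**Figure D3:**
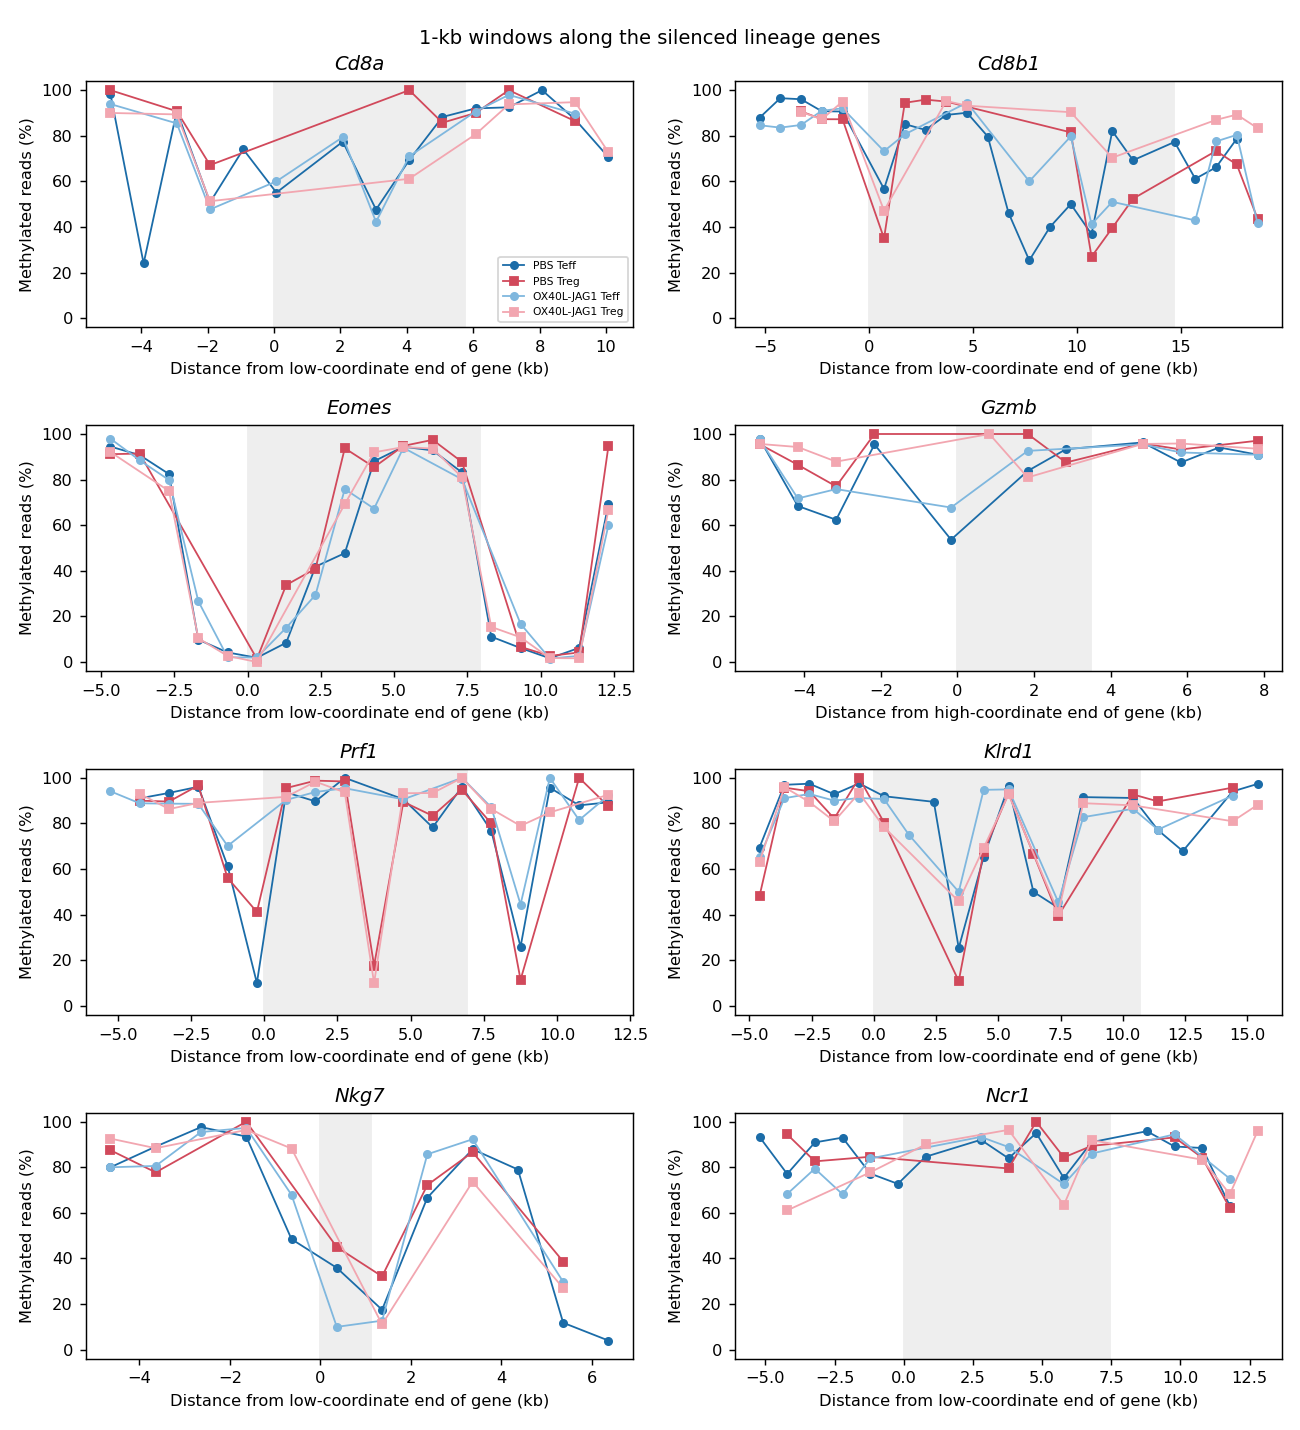
Percentage of methylated reads (y axis) in 1-kb windows along the 8 silenced genes, by distance in kb from the named end of the gene (x axis), 1 line per library, each library at its own positions with at least 5 reads and windows with at least 3 positions; genes are shaded, and lines join the windows present. Eomes is near 0% at its start and beyond its end with a methylated stretch inside the gene between, and Ncr1 stays above 60% in the windows drawn.

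Gzmb (14939, chr14:56258836-56262334), granzyme B, was at 82.1% in PBS Teff, 89.5% in PBS Treg, 87.7% in treated Teff and 92.3% in treated Treg. Only 1 shared position lay in the gene itself, so this level is that of its flanks. Around the start, chr14:56262001-56263000 had 53.7% of 41 reads methylated in PBS Teff, and 67.7% of 31 in treated Teff, below the rest of the locus in both.

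Prf1 (18646, chr10:61297751-61304684), perforin, was at 92.5%, 91.8%, 89.7% and 89.9% in the same library order, but none of its shared positions fell in the promoter printed above. The start window, chr10:61297001-61298000, had 10% of 90 reads methylated in PBS Teff (95% interval 5.35% to 17.9%), and 41.2% of 34 in PBS Treg (26.4% to 57.8%), at different positions. The neighbouring upstream window, chr10:61296001-61297000, could be compared at 7 shared positions. It had 31.0% in PBS Teff but 56.1% in PBS Treg, 25.1 points apart (3.84 to 43.5, adjusted p = 0.877 by Fisher's exact test). At 10 positions shared with treated Teff, PBS Teff was at 67.6% of 74 reads there and treated Teff at 70% of 70. The PBS Teff level in this window thus depended on the positions read. Within 1 kb of the start site the level was 47.9% of 217 reads in PBS Teff, 70.4% of 108 in PBS Treg, 78.3% of 60 in treated Teff and 86.8% of 53 in treated Treg, again at differing positions. The low start was thus read in PBS Teff, and the treated libraries had no promoter CpG with 5 reads.

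Klrd1 (16643, chr6:129588092-129598775), which encodes CD94, a partner of the NKG2 receptors, was at 93.1% in PBS Teff, 90.3% in PBS Treg, 89.8% in treated Teff and 86.8% in treated Treg. Its low-coordinate boundary was methylated at 94.0%, 85.5%, 90.9% and 83.3% within 1 kb. Inside the gene, chr6:129591001-129592000 was lower, at 25.4% of 71 reads in PBS Teff, 10.9% of 46 in PBS Treg, 50% of 22 in treated Teff and 45.8% of 24 in treated Treg, at differing positions.

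Nkg7 (72310, chr7:43437138-43438246) is the shortest of the genes, and none of its 18 shared positions lay inside it. On the low-coordinate side their level was 92.6% to 96.8% over the 4 libraries. On the high-coordinate side the PBS libraries had 18.7% in Teff and 27.8% in Treg, with 11.1% in treated Teff and 16.7% in treated Treg. The window chr7:43438001-43439000 was at 17.5% of 40 reads in PBS Teff, 32.1% of 28 in PBS Treg, 12.7% of 55 in treated Teff and 11.1% of 27 in treated Treg. Low methylation thus lay beside this gene in all 4 libraries, although it is counted as silenced.

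Ncr1 (17086, chr7:4337715-4345184) was at 87.1%, 89.5%, 81.9% and 84.0%. At each library's own positions, no window with at least 3 of them was under 60%, the nearest being chr7:4333001-4334000 at 61.1% of 18 reads in treated Treg. At the 6 positions that PBS Teff shared with PBS Treg in chr7:4349001-4350000, PBS Teff had 57.5% of 40 reads methylated. Of its 3 tested windows, chr7:4343001-4344000 varied most, at 73.8% of 80 reads in PBS Teff, 85.3% of 68 in PBS Treg, 70.2% of 84 in treated Teff and 63.5% of 52 in treated Treg.

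The design asks whether Treg differ from Teff and whether treatment changed either. For these genes, no difference passed the test. A window or position was called at a Benjamini-Hochberg adjusted p under 0.05 by Fisher's exact test, over all windows or positions, with at least 20 points between libraries; a locus needed at least 10 points. Between PBS Treg and PBS Teff, 0 of 25 windows were called, against 0.279% of all windows, and 3 had an unadjusted p under 0.05 (5.73% of all). Between treated Treg and treated Teff, 0 of 25 were called against 0.114%, and 0 had an unadjusted p under 0.05 (5.30% of all). In Teff, treatment gave 0 of 25 against 0.557%, with 5 at an unadjusted p under 0.05 (15.9% of all), and in Treg 0 of 25 against 0.100%, with 3 (9.48% of all). At such background shares, 0 of 25 is near what all windows showed.

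Loci and positions gave the same counts. None of the 10 loci was called in any of the 4 comparisons, against 0.747% of all loci for PBS Treg and Teff, 0.439% for treated Treg and Teff, 3.0% for treatment in Teff and 1.47% for treatment in Treg. Unadjusted p-values of Fisher's exact test under 0.05 were found for 4, 0, 4 and 1 of the 10 loci, against 12.1%, 10.7%, 41.3% and 26.1% of all loci. Of the 363 positions, 0 were called in any comparison, against 0.0169%, 0.00221%, 0.0285% and 0.000355% of all positions, and 5, 4, 10 and 8 had an unadjusted p under 0.05, against 1.32%, 1.20%, 3.23% and 1.74% of all. The test of whether the treatment difference itself differed between Treg and Teff (a Wald test on log odds) called 0 of 25 windows, against 0.0108% of all, with 2 at an unadjusted p under 0.05 (4.98% of all). Both treatment comparisons share their PBS libraries with the PBS cell-type comparison.

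**Figure D4:**
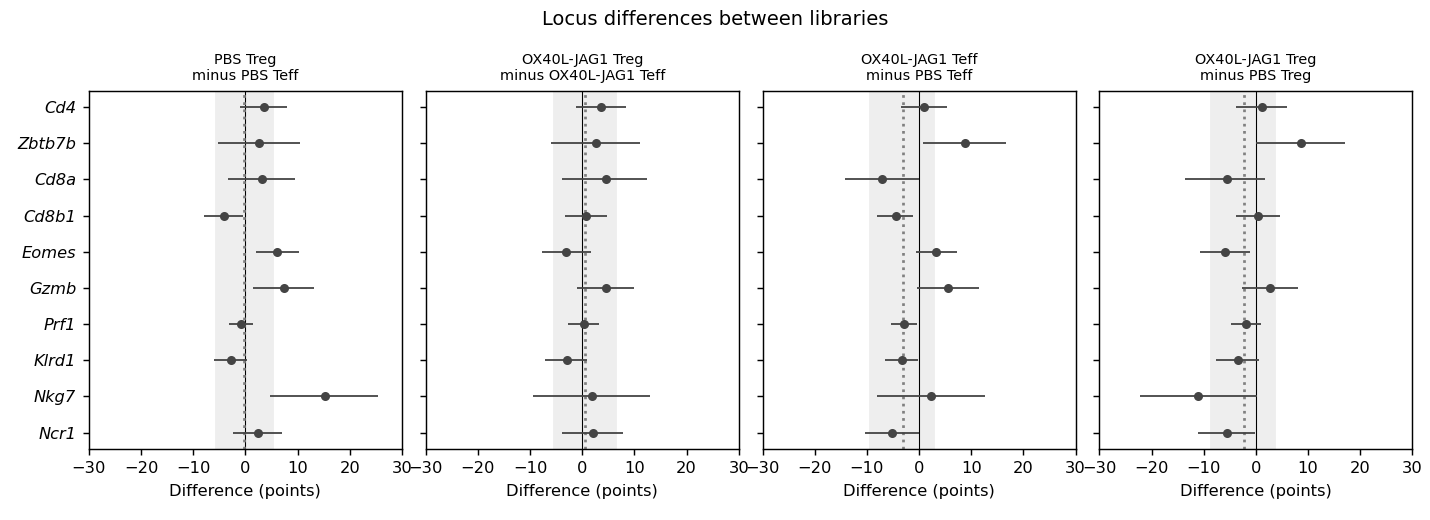
Difference in locus methylation in percentage points (x axis) for the 10 genes (y axis) in the 4 comparisons of libraries; bars are 95% Newcombe intervals, the dotted line is the median of all loci and the shaded band holds the middle 90% of all loci. Nkg7 between PBS Treg and PBS Teff, at 15.3 points, lies farthest from 0, and none of the differences passed the test.

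Some locus differences were far smaller, or turned sign, as a mean over positions instead of pooled reads. Nkg7 had 54.9% of 175 reads methylated in PBS Teff and 70.2% of 151 in PBS Treg, 15.3 points apart (4.79 to 25.3, adjusted p = 0.129 by Fisher's exact test). The mean of the differences at its 18 positions was 4.58 points. Eomes was 6.16 points higher in PBS Treg than in PBS Teff (2.06 to 10.3, Fisher's exact test, adjusted p = 0.0935), with a mean over positions of 0.838 points. Zbtb7b was 8.71 points higher in treated Teff than in PBS Teff by pooled reads, and its mean over positions was -1.66 points. Gzmb was 7.40 points higher in PBS Treg than in PBS Teff (1.49 to 13.1, Fisher's exact test, adjusted p = 0.222), and there the mean over positions was 6.07 points.

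The Cd4 locus differences were averages over 70 shared positions, with intervals for counting error. The locus was 3.50 points higher in PBS Treg than in PBS Teff (-1.07 to 8.01), and 3.63 points higher in treated Treg than in treated Teff (-1.14 to 8.33). Treatment differences were 1.0 point in Teff (-3.41 to 5.39) and 1.13 points in Treg (-3.75 to 5.98). In the same treatment comparisons the median of all loci was -3.13 and -2.27 points. Single Cd4 windows lay farther apart than the locus. The window chr6:124876001-124877000 was 15.8 points higher in PBS Treg than in PBS Teff (0.882 to 28.0, adjusted p = 0.872 by Fisher's exact test), and chr6:124882001-124883000 was 14.4 points higher in treated Treg than in PBS Treg (2.35 to 26.1, adjusted p = 0.396 by Fisher's exact test).

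A few windows had a small adjusted p with a difference under 20 points, or a larger difference that missed the threshold on p. In the Cd8b1 flank, chr6:71319001-71320000 had 95.6% of 365 reads methylated in PBS Teff against 85.3% of 307 in treated Teff, with PBS Treg at 90.3% and treated Treg at 90.5%. Beside Eomes, chr9:118487001-118488000 had 5.18% of 328 reads methylated in PBS Teff against 17.6% of 170 in treated Teff, with 11.4% and 15.1% in the Treg libraries. These were differences of -10.3 points (adjusted p = 0.00115 by Fisher's exact test) and 12.5 points (adjusted p = 0.00252 by Fisher's exact test), and the second went against the median of all windows, -2.82 points. The Ncr1 window chr7:4343001-4344000 was 21.8 points lower in treated Treg than in PBS Treg, with adjusted p = 0.293 by Fisher's exact test. At the 7 positions that the treated libraries shared in the Cd8b1 window chr6:71323001-71324000, treated Teff had 76.8% of 56 reads methylated and treated Treg 47.2% of 53, a difference of -29.6 points (-45.3 to -11.4, adjusted p = 0.370 by Fisher's exact test).

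The libraries carried the marks of their labels. In the Foxp3 window chrX:7580001-7581000, at the gene of the Treg-defining factor, the level was 94.6% in PBS Teff and 94.3% in treated Teff, against 41.0% in PBS Treg and 46.5% in treated Treg. Of 8 Treg marker genes, 5 had a window called lower in Treg among the PBS libraries, against 1.18% of all genes, and 4 among the treated ones, against 0.395%, Foxp3, Ikzf2, Ikzf4 and Il2ra in both. Read counts summed over the listed positions came to between 103504548 and 208269988 a library, fewest in treated Treg. A read that covers several positions is counted at each of them in these sums. The level over all shared positions was 81.6% to 85.2%. Among markers of other cells, 0 of 8 B cell genes had a called window in any comparison, against 0.164% to 2.61% of all genes per comparison and direction. Of 6 myeloid genes with a tested window, Spi1 had one called higher in Treg in both pairs, against 0.889% and 0.408% of all genes.

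Beyond the 10 genes, the cytotoxic granule genes were mostly not called. Of 20 with a tested window, granzymes, perforin and release factors among them, 1 had a window called lower and 0 higher in PBS Treg against PBS Teff, where 1.18% of all genes had one lower and 0.889% one higher. That gene, Stx11, a syntaxin needed for granule release, was at 80.4% in PBS Teff, 53.5% in PBS Treg, 52.5% in treated Teff and 43.3% in treated Treg in chr10:12967001-12968000. It was also the 1 gene called lower under treatment in Teff (2.61% of all genes). Of 17 NK receptor genes, 0 had a called window in any of the 4 comparisons, against 0.164% to 2.61% of all genes per comparison and direction. The median locus difference of the granule genes was 0.567, 1.22, -2.30 and -1.84 points in the 4 comparisons, in the order used above for the windows, and that of the NK receptor genes -0.553, -1.55, -1.98 and -2.60 points, against -0.303, 0.548, -3.13 and -2.27 points over all loci. The 8 silenced genes had medians of 2.75, 1.31, -3.05 and -4.51 points.

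Windows were called at several transcription factors listed here for the CD8 and NK lineages. Being on the list does not mean that a factor acts only in those lineages. Of 7 such genes with a tested window, 2 had one called higher and 1 lower in PBS Treg against PBS Teff, and 1 each in the treated pair. Under treatment, 1 had one called higher and 3 lower in Teff, and 0 in Treg. In the same order, the higher and lower shares of all genes were 0.889% and 1.18%, 0.408% and 0.395%, 0.702% and 2.61%, and 0.164% and 0.486%. Runx3 was called higher in Treg in both pairs, at 14.8% in PBS Teff, 44.9% in PBS Treg, 23.1% in treated Teff and 50.6% in treated Treg in chr4:135120001-135121000. Its differences were 30.1 points (adjusted p = 2.8e-08) and 27.5 points (adjusted p = 0.0021 by Fisher's exact test), against 0.889% and 0.408% of all genes with a window called higher. Nfil3, needed for NK cell development, was called lower in PBS Treg and in treated Teff than in PBS Teff, at 91.0%, 51.7%, 37.9% and 9.68%. Tbx21, which encodes T-bet, was called lower under treatment in Teff, from 96.4% to 72.7%, and the Wald test called no difference between this and the treatment difference in Treg. Prdm1, which encodes BLIMP-1, was called lower under treatment in Teff, from 90.7% to 42.8%. Its level in PBS Treg was also 18.1 points below that in PBS Teff (adjusted p = 1.0e-05 by Fisher's exact test) and that in treated Treg 17.8 points below that in PBS Treg (adjusted p = 0.0396 by Fisher's exact test), both under the 20 points a call needed. In Ikzf3, neighbouring windows were called in opposite directions in different comparisons: chr11:98512001-98513000 lower in treated Treg than in treated Teff, and chr11:98513001-98514000 higher in PBS Treg and in treated Teff than in PBS Teff.

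Factors of early and CD4 T cells were called in both directions. Of 10 such genes, 5 had a window called higher and 1 lower in PBS Treg against PBS Teff, against 0.889% and 1.18% of all genes. In the treated pair, 3 had one called higher and 1 lower, against 0.408% and 0.395%. Zbtb7b was not among them. Tcf7, which encodes TCF-1, was at 6.99% in PBS Teff, 41.7% in PBS Treg, 29.7% in treated Teff and 67.9% in treated Treg in chr11:52271001-52272000, called higher in all 4 comparisons. Lef1 and Satb1 were the other genes called higher in Treg in both pairs. Tox was the gene called lower in PBS Treg, at -32.1 points in chr4:6868001-6869000 and -27.2 points in chr4:6930001-6931000. Gata3 was the gene called lower in treated Treg than in treated Teff, at -23.0 points in chr2:9868001-9869000. Under treatment in Teff the list had 5 genes with a window called higher and 1 lower, against 0.702% higher and 2.61% lower of all genes. In Treg it had 2 higher and 1 lower, against 0.164% and 0.486%. The gene called lower was Tox in both treatment comparisons. The gene lists were chosen with earlier results of these data known, and genes differ in how many windows were tested. The shares of all genes are therefore a description beside the counts and not a test of the lists.

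By Euclidean distance over the 4 locus levels, among 16614 protein-coding loci with at least 20 shared positions, Ap3b2 (1.37 points), Fxyd7 (1.54 points) and Qrsl1 (2.12 points) were nearest to Cd4.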

How the data were processed

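Per the submitters' processing notes, the authors used Trimmomatic and Bismark with mouse build mm10; their versions and settings are not given in the sources used here, nor is any removal of duplicates. The table deposited gives, per the file headers, read counts and a methylation level per cytosine, headed as a percentage but holding a fraction from 0 to 1; positions under 5 reads are listed at 0 counts. Strands are on separate lines. Levels were recomputed from the counts. Positions that every library read at least 5 times were pooled into 1-kb windows (at least 5 positions) and gene loci (RefSeq, GRCm38.p6, 5 kb on each side; the gene table has no exons). Libraries were compared by two-sided Fisher's exact test with Benjamini-Hochberg adjustment, Wilson and Newcombe intervals at 95%, and a Wald interaction with 0.5 added (SciPy 1.17.1, Python 3.11.15); the tests were checked on simulated data. Intervals and p-values cover counting error only, with reads summed over neighbouring positions taken as independent. Median depth at shared positions was 9 to 14 reads. The members and gene lists were chosen with earlier results of these data known. One list of T cell genes is not reported here. Of the listed genes outside the members, only ones with a called window were named in the results, though not all of those. Neighbours of the members and the genes nearest to Cd4 in level were named as well. Every member is described. Alternatives changed the read minimum, window, flank, weighting, depth and centring. The mitochondrial genome was left out.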

Additional observations from a re-analysis of the deposited data

Results flagged for a closer look

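In the Prdm1 window chr10:44432001-44433000, the treatment difference itself differed between the cell types. The level was 90.7% of 335 reads in PBS Teff and 42.8% of 159 in treated Teff, and 72.7% of 260 in PBS Treg and 54.9% of 195 in treated Treg. The treatment difference was -48.0 points for Teff against -17.8 points for Treg, 30.2 points apart. It was 1 of 34 windows, 0.0108% of the 314517 tested, that the Wald test on log odds called. With 1 library a group, this compares libraries, and the difference has no replicate check.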

How the results depend on the processing

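No paired analysis was possible because each group was 1 library, and no replicate could be left out. No member window or position was called under any alternative run, nor any member interaction with counts divided by 3, at 10 reads, with shifted windows, with 3 positions a window or without the deepest positions; at positions with at least 5 reads in the 2 libraries compared, 61, 44, 76 and 33 windows were tested and 0 called. Within the gene bounds alone, 1 of 7 loci was called between OX40L-JAG1 Teff and PBS Teff, against 2.80% of 27948 loci. This was Eomes, from 81.8% to 70.9%, with a mean over positions of -3.80 points. The silenced minus expressed medians were 63.7, 66.6, 56.2 and 62.6 points at 10 reads. They were 53.5, 50.2, 50.7 and 51.0 points within the gene bounds, and 26.8, 24.7, 27.4 and 20.4 points as unweighted means. At each library's own positions, an alternative chosen after seeing the data, they were 33.7, 35.8, 32.1 and 29.0 points. Pooled and unweighted locus differences, also compared after seeing the data, had opposite signs for 1, 3, 4 and 1 of the 10 genes. Counts over the whole genome moved by over 1.5 times under 11 of 28 alternatives for windows, 8 of 24 for loci and 8 of 20 for positions. With counts divided by 3, the 879, 357, 1753 and 316 called windows became 141, 22, 64 and 1, and the 347, 204, 1395 and 682 called loci 53, 18, 167 and 27. With at least 10 reads they became 281, 137, 268 and 99 windows. With 3 positions a window, 3404 were called for treatment in Teff, and at positions shared by the pair 4002, with 1831 between PBS Treg and PBS Teff. Centring changed the split for treatment in Teff from 1476 lower and 277 higher windows to 969 and 352, and from 1281 lower and 114 higher loci to 420 and 219; for treatment in Treg it changed 609 and 73 loci to 294 and 112. Only 13.8% of the listed member positions were shared by all 4 libraries, so start regions were read in part.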
